A study of Rattus norvegicus with 12 samples.

Results

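All 6 small RNA libraries made from rat liver after partial hepatectomy were compared, as a single group, with all 6 libraries of sham-operated liver, which takes in 12 of the 12 libraries of the series. The group was set by the labels of the samples and not by any measured value. The animals were Fischer-344 rats, an inbred strain. The control libraries (pre_PH, replicates 1 to 6) came from normal, sham-operated liver. The hepatectomy group joined 2 libraries at each of 24, 48 and 168 hours after surgery, so it mixes 3 stages of regrowth. The labels did not state the age or sex of the rats, the part of the liver removed or whether each library was a different animal. The p-values therefore measure only how far these libraries vary, and that variation may be technical. Anything the 2 libraries at a time shared in preparation cannot be told apart from the time itself. The comparison asks which PIWI-interacting RNAs (piRNAs) differ from sham liver when the stage of regeneration is set aside.

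After partial hepatectomy the remaining liver regrows, as hepatocytes leave rest and divide within the first days, and mass is largely restored within about a week. PIWI proteins use piRNAs as guides to silence transposons, and the pathway is best known from the germ line. In other tissues many annotated piRNAs overlap fragments of other small RNAs, and what the individual names below do in the liver is not known. The deposited tables list piRNA names with counts and no genes, so the labelled tissue could not be checked against liver markers. No piRNA sequences were used here.

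Library totals ran from 20741811 to 31467460 reads and listed piRNA reads from 120844 to 351818. Levels are given as normalised CPM, the read count of a name scaled to a common total of listed piRNA reads with TMM, which corrects for differences in makeup. They are relative to other piRNAs, and in whole liver fewer cells holding an RNA cannot be told apart from less of it per cell. The TMM factors spanned 0.478 in pre_PH replicate 3, where piRNAs were also the largest share of library reads (1.25%), to 1.54 in 168h replicate 1. In pre_PH replicate 3 the normalised CPM of every name, rare or abundant, is raised accordingly. There rno_piR_000753 had its lowest pre_PH share, 0.0117%, but stood at 244 normalised CPM, above its pre_PH minimum of 227. The number of calls and the abundant names are also given without that library. No pair of libraries within a group agreed within sampling noise.

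Of 52 piRNAs tested, 5 were higher and 1 was lower in the 6 libraries after hepatectomy than in the 6 pre_PH libraries. That is 11.5% of those tested (edgeR quasi-likelihood test, Benjamini-Hochberg adjusted p under 0.05), or 9.62% higher and 1.92% lower. The higher ones were rno_piR_020049, rno_piR_004937, rno_piR_010957, rno_piR_031043 and rno_piR_005567, and the lower one was rno_piR_000753. Only rno_piR_005567 among them is abundant, with rank 4 by mean share. Together the 5 higher names held between 3.57 and 41.7% of piRNA reads after hepatectomy (median 8.72%) and between 0.808 and 5.69% in pre_PH (median 2.80%). They were picked as higher in these same libraries, so a rise in their sum is built in. Both 24h libraries and 168h replicate 1 lay within the pre_PH range of the sum. Without rno_piR_005567 the rest held 2.74 and 2.91% at 48h, and between 0.0713 and 0.214% at 24h and 168h. In pre_PH the rest held between 0.0534 and 0.213%. All 6 called piRNAs had the same edgeR adjusted p of 0.0413, close to the threshold, and 9 of the 52 had an unadjusted p under 0.05. All 52 were found in every library, and 26 had positive and 26 negative fold changes, with a median log2 fold change of -0.01.

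The split into rises and falls depended on scaling. Against 5 and 1 with TMM, scaling to the listed piRNA total gave 6 and 0, upper-quartile scaling 3 and 0, TMM leaving the 10 most abundant aside 6 and 0, and the authors' library total 1 and 1. Between these and the TMM fit the median log2 fold change of all tested piRNAs moved to 0.13 for the piRNA total and 0.15 for TMM with the 10 most abundant left aside. Each of the 6 called piRNAs kept its direction under all of these scalings.

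The normalised CPM of rno_piR_000753 was lower in every library after hepatectomy than in any pre_PH library. Its normalised CPM in pre_PH was 227 at the lowest, 269 at the median and 340.3 at the highest. It was 148 and 54.7 at 24h, 78.4 and 32.5 at 48h, and 154 and 109 at 168h. The groups did not overlap on this scale, which was true of no other tested piRNA, so that 1.92% of those tested lay wholly below pre_PH. Per library read they did not overlap either, but as a percent of listed piRNA reads they did, with 0.00358 to 0.0237% after hepatectomy, 0.0117 to 0.0407% in pre_PH and 3 of 6 libraries below the pre_PH minimum. The log2 fold change was -1.49 ± 0.42 (SE, n = 6 against 6, edgeR adjusted p = 0.0413). The counts behind it are small, 94 reads after hepatectomy and 278 in pre_PH. Its reads fell into 4 to 9 distinct sequences per library after hepatectomy and 11 to 19 in pre_PH. The level differed among the 3 times as well (edgeR adjusted p = 0.0460), with the smallest difference from pre_PH at 168h. The call was lost under 3 scalings, by upper quartile (adjusted p = 0.0966), by piRNA total (0.314) and by TMM leaving the 10 most abundant aside (0.0630). The call passed in 12 of 25 alternatives, and in 6 of the 12 that left out a single library. Over all 25 alternatives the adjusted p ran from 0.00374 to 0.345.

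**Figure D1:**
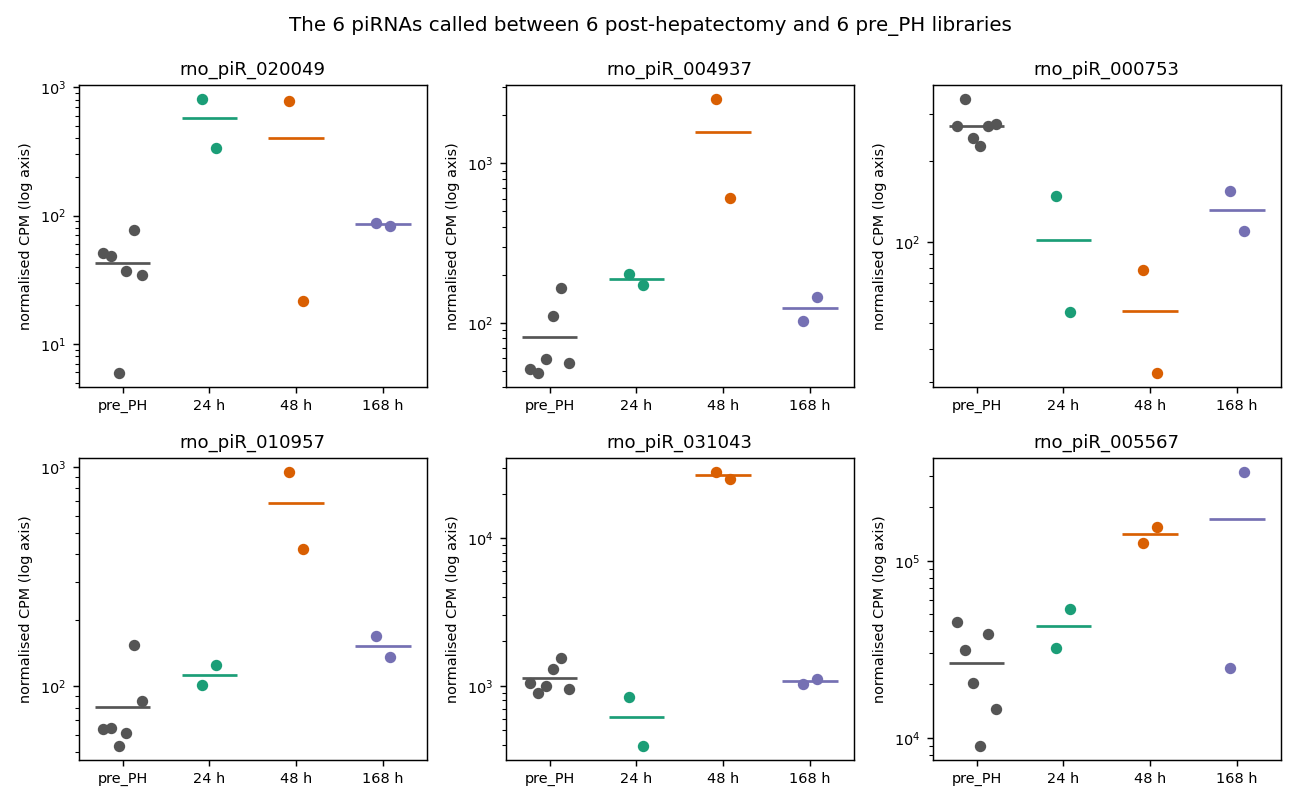
Normalised CPM (log axis) of the 6 called piRNAs in each library of pre_PH (n = 6) and of 24, 48 and 168 h after hepatectomy (n = 2 each). Points are libraries and lines are group means. For rno_piR_000753 all 6 points after hepatectomy lie below the pre_PH points, while for rno_piR_031043 only the 48 h points lie above them.

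The level of rno_piR_020049 was the most often above the pre_PH range among the piRNAs that were higher. In pre_PH its normalised CPM was 5.94, 42.7 and 77.6 at the lowest, median and highest. It reached 811 and 336 at 24h, 784 and 21.7 at 48h, and 87.5 and 83.3 at 168h. Thus 5 of 6 libraries lay above pre_PH, with both 168h libraries just above it, and 48h replicate 2 lay within. The log2 fold change was 3.02 ± 0.78 (SE, edgeR adjusted p = 0.0413). This name had only 1 or 2 distinct sequences per pre_PH library and 2 to 4 after hepatectomy, so its 266 reads after hepatectomy and 44 in pre_PH fell on few distinct sequences. It was the only rise that also passed without both 48h libraries (log2 fold change 2.93, edgeR adjusted p = 0.0281). The 24h libraries held 54.0% of its summed normalised CPM after hepatectomy. Without both 24h libraries the log2 fold change was 2.45 and did not pass (edgeR adjusted p = 0.0619). It passed in 17 of 25 alternatives, with adjusted p from 0.00029 to 0.314.

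For rno_piR_004937 the rise was carried mainly by 48h. Normalised CPM was 48.6, 57.7 and 165 at the lowest, median and highest in pre_PH. It was 203 and 172 at 24h, 2528 and 603 at 48h, and 103 and 146 at 168h. All 24h and 48h libraries lay above the pre_PH range and both 168h libraries lay inside it. The pooled log2 fold change was 2.91 ± 0.78 (SE, edgeR adjusted p = 0.0413). The 48h libraries held 83.4% of its summed normalised CPM after hepatectomy, and 48h replicate 1 alone 67.3%. Without both 48h libraries the log2 fold change was 0.90 and did not pass (edgeR adjusted p = 0.305). Its distinct sequences numbered 4 to 14 per pre_PH library and 6 to 24 after hepatectomy.

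A similar picture was seen for rno_piR_010957, at lower fold change. Its normalised CPM in pre_PH was 53.5, 64.4 and 155 at the lowest, median and highest, the last in pre_PH replicate 5. The libraries after hepatectomy stood at 101 and 125 at 24h, 950.5 and 423 at 48h, and 170 and 135 at 168h. Both 48h libraries and 168h replicate 1 exceeded pre_PH, and the other 3 overlapped it only through pre_PH replicate 5. The log2 fold change, 1.95 ± 0.58 (SE, edgeR adjusted p = 0.0413), was 0.70 without both 48h libraries (edgeR adjusted p = 0.305). Of its summed normalised CPM after hepatectomy, 72.1% came from 48h.

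The pooled rise of rno_piR_031043 came from a single time. In pre_PH its normalised CPM was 891, 1025 and 1541 at the lowest, median and highest. The 24h values were 842 and 391, the 48h values 28231 and 25424, and the 168h values 1034 and 1115. Both 24h libraries lay below the pre_PH range, both 168h libraries lay within it, and 48h held 94.1% of the sum. The median after hepatectomy, 1074, was close to the pre_PH median although the pooled log2 fold change was 3.08 ± 0.93 (SE, edgeR adjusted p = 0.0413). With the 3 time contrasts averaged on the log scale the value was 1.22 (edgeR adjusted p = 0.0121). Without both 48h libraries it turned to -0.42 and did not pass (edgeR adjusted p = 0.560). This piRNA differed among the 3 times with the smallest p of all (edgeR adjusted p = 3.1e-05). The number of distinct sequences moved little, from 19 to 26 per pre_PH library to 14 to 30 after hepatectomy.

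The abundant rno_piR_005567 was higher at 48h and in 1 of the 168h libraries. Its share of piRNA reads in pre_PH ran from 0.691 to 5.54%. The share was 3.36 and 3.73% at 24h, 10.7 and 17.1% at 48h, and 3.80 and 41.5% at 168h. In normalised CPM, 24h replicate 2, both 48h libraries and 168h replicate 2 exceeded the pre_PH maximum of 45245, and 168h replicate 1 (24698) lay below the pre_PH median of 25863. The log2 fold change was 2.16 ± 0.67 (SE, edgeR adjusted p = 0.0413). Without 168h replicate 2, which held 44.7% of the sum, it was 1.58 and did not pass (edgeR adjusted p = 0.159). It passed in 9 of 25 alternatives, the fewest of the 6, with adjusted p from 0.00665 to 0.584.

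Single libraries decided how many piRNAs were called. With pre_PH replicate 1, 2 or 4 or 48h replicate 1 left out, edgeR called none, although 9, 9, 10 and 8 piRNAs had an unadjusted p under 0.05. Without pre_PH replicate 3 the only call was rno_piR_000753, without pre_PH replicate 6 there were 2 rises, and without 48h replicate 2 there was 1 rise. Leaving out 24h replicate 2 gave 3 rises and 2 falls, 24h replicate 1 gave 6 and 2, and 168h replicate 1 gave 7 and 1. By time, 8 rises and 2 falls passed without 24h, 1 rise and 3 falls without 48h, and 6 rises and 1 fall without 168h. Of the 6 called piRNAs, 5, 1 and 5 were kept in these fits.

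The other 46 tested piRNAs did not pass, with log2 fold changes from -1.29 to 1.998. The nearest to the threshold was rno_piR_006831, whose fold change of 1.998 ± 0.65 (log2, SE) had an edgeR adjusted p of 0.0516. Its normalised CPM in pre_PH had a minimum of 38.7, a median of 72.3 and a maximum of 186, and the values were 93.6 and 156 at 24h, 1097 and 477 at 48h, and 87.5 and 151 at 168h. Only the 48h libraries exceeded pre_PH, and it passed in 11 of 25 alternatives. The next were rno_piR_001825 (log2 fold change -1.09, adjusted p = 0.189), rno_piR_000552 (-1.29, 0.264), rno_piR_033824 (0.88, 0.264) and rno_piR_001415 (-0.83, 0.438), by the same edgeR test. For rno_piR_001825, 5 of 6 libraries after hepatectomy lay below all pre_PH libraries, the exception being 24h replicate 1 at 296.

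The 10 most abundant piRNAs held most of the reads in every library, and of these only rno_piR_005567 passed. The share of rno_piR_000685, the most abundant, was 29.9% ± 9.66 (SD, n = 6) after hepatectomy and 44.0% ± 5.79 (SD, n = 6) in pre_PH. Of the libraries after hepatectomy 5 lay below the pre_PH minimum of 39.3%, and 168h replicate 1 lay within the range at 43.8%. On normalised counts the fold change was -0.81 ± 0.45 (log2, SE), which did not pass in edgeR (adjusted p = 0.396). The third, rno_piR_004288, held 7.58% ± 4.67 after hepatectomy and 13.9% ± 8.84 in pre_PH, and its log2 fold change was -0.93 ± 0.50 (SE, edgeR adjusted p = 0.385).

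Other abundant names varied as much within pre_PH as between groups. The share of rno_piR_005556 ran from 0.849 to 19.6% in pre_PH and from 1.64 to 26.5% after hepatectomy. That of rno_piR_005787 ran from 0.115 to 11.1% and from 1.13 to 8.78%. For rno_piR_000030 the ranges were 0.151 to 5.07% and 0.337 to 3.67%. The log2 fold changes of these 3 were 0.19 ± 0.84, -0.30 ± 0.89 and -0.42 ± 0.86 (SE), and each turned sign in at least 4 of 25 alternatives, so no direction is given. Leaving out pre_PH replicate 3 gave 0.85 for rno_piR_005556, 0.63 for rno_piR_005787 and 0.44 for rno_piR_000030. Without that library rno_piR_000685 stood at -0.76, rno_piR_004288 at -1.42, rno_piR_005359 at 0.10, rno_piR_005901 at 0.23, rno_piR_005900 at -0.49 and rno_piR_008639 at 0.69, and none of these passed (edgeR adjusted p of 0.103 or above). The level of rno_piR_005359 exceeded the pre_PH maximum of 19797 normalised CPM in 5 of 6 libraries, but 48h replicate 2 fell below the pre_PH minimum, at 5125 against 9212, and the log2 fold change of 0.59 ± 0.49 (SE) did not pass (edgeR adjusted p = 0.702). The remaining abundant names, rno_piR_005901, rno_piR_005900 and rno_piR_008639, did not pass either. Their log2 fold changes were 0.59, -0.16 and 0.31, with edgeR adjusted p-values of 0.702, 0.948 and 0.948, and each turned sign in 2 or 3 alternatives.

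**Figure D2:**
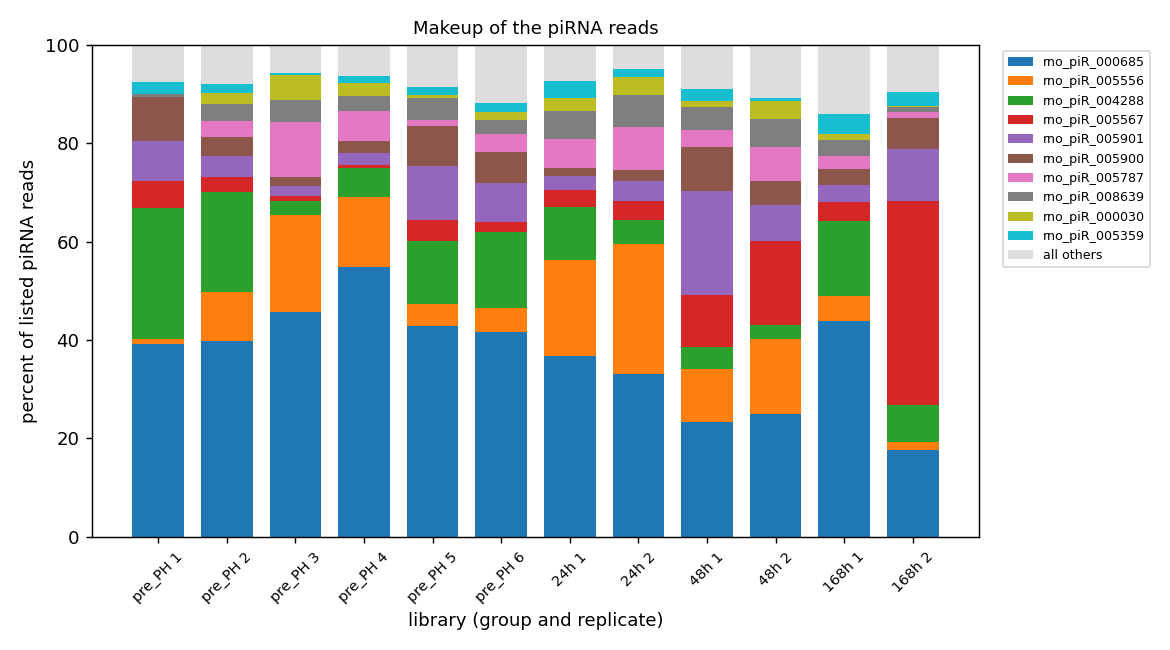
Percent of listed piRNA reads held by the 10 most abundant piRNAs and by all others, 1 bar per library (pre_PH, n = 6, and 24, 48 and 168 h after hepatectomy, n = 2 each). The segment of rno_piR_000685 is between 17.7 and 43.8% after hepatectomy, and that of rno_piR_005567 reaches 41.5% in 168h replicate 2.

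The 3 times after hepatectomy were also compared with each other. In a fit of all 4 groups, 27 of 80 piRNAs (33.8%) differed among 24h, 48h and 168h (edgeR quasi-likelihood test with 2 degrees of freedom, adjusted p under 0.05), and 16 did without 48h replicate 2. This fit has another filter and another spread than the pooled one, so the counts are not on equal terms. For the 52 piRNAs of the pooled comparison, the mean of the 3 time contrasts called 6 higher and 3 lower. Of the 27 that differed among times, 14 were among the 52 tested in the pooled comparison, and 3 of the 14, rno_piR_031043, rno_piR_004937 and rno_piR_000753, were also called there. They are 50.0% of the pooled calls, where 26.9% of all 52 tested piRNAs differed among times. They are also 11.1% of the 27 calls among times, but 13 of those 27 were not tested in the pooled comparison. With so few shared names, nothing is read from these shares. For the other 11 the pooled log2 fold change lay between -1 and 1. The fit of 4 groups admits a piRNA with reads in as few as 2 libraries. Of the 28 that entered it alone, 13 differed, and all 13 were highest at 48h, the group through which such names mostly enter, so nothing is read from their direction.

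In several piRNAs values above and below pre_PH met in the pool. The normalised CPM of rno_piR_000746 in pre_PH had a minimum of 6537, a median of 9003 and a maximum of 14806. It was 5855 and 3965 at 24h, 1421 and 2434 at 48h, and 21600 and 13869 at 168h. The 24h and 48h libraries all lay below pre_PH, 168h replicate 1 lay above it, and the pooled log2 fold change was -0.24 ± 0.59 (SE, edgeR adjusted p = 0.948). The test among times passed (edgeR adjusted p = 0.00184). Its sign in the pool changed with the piRNA total (0.028).

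The tightest level in pre_PH among these belonged to rno_piR_015359, between 4540 and 5939 normalised CPM. After hepatectomy it was 2019 and 1095 at 24h, 1646 and 5082 at 48h, and 9969 and 13765 at 168h. Thus 3 libraries lay below, 2 above and 1 inside the pre_PH range, and the pooled log2 fold change was 0.078 ± 0.56 (SE, edgeR adjusted p = 0.948). Its level differed among the times (edgeR adjusted p = 0.00184). For rno_piR_002302 the pre_PH values lay between 89.1 and 199. The values were 117 and 109 at 24h, 98.0 and 54.2 at 48h, and 396 and 422 at 168h. Only the 168h libraries exceeded pre_PH and only 48h replicate 2 lay below it, and the pooled value was 0.47 ± 0.50 (SE, edgeR adjusted p = 0.723, among times 0.00184). Another that differed among the times, rno_piR_034827 (edgeR adjusted p = 0.00184), was too rare for the pooled filter. It entered the fit of 4 groups only through the 48h libraries, where it was high, so nothing is read from its p. Its level was 8.60 to 56.7 normalised CPM in pre_PH, 1323 and 296 at 48h, and between 7.82 and 62.4 in the other 4 libraries.

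**Figure D3:**
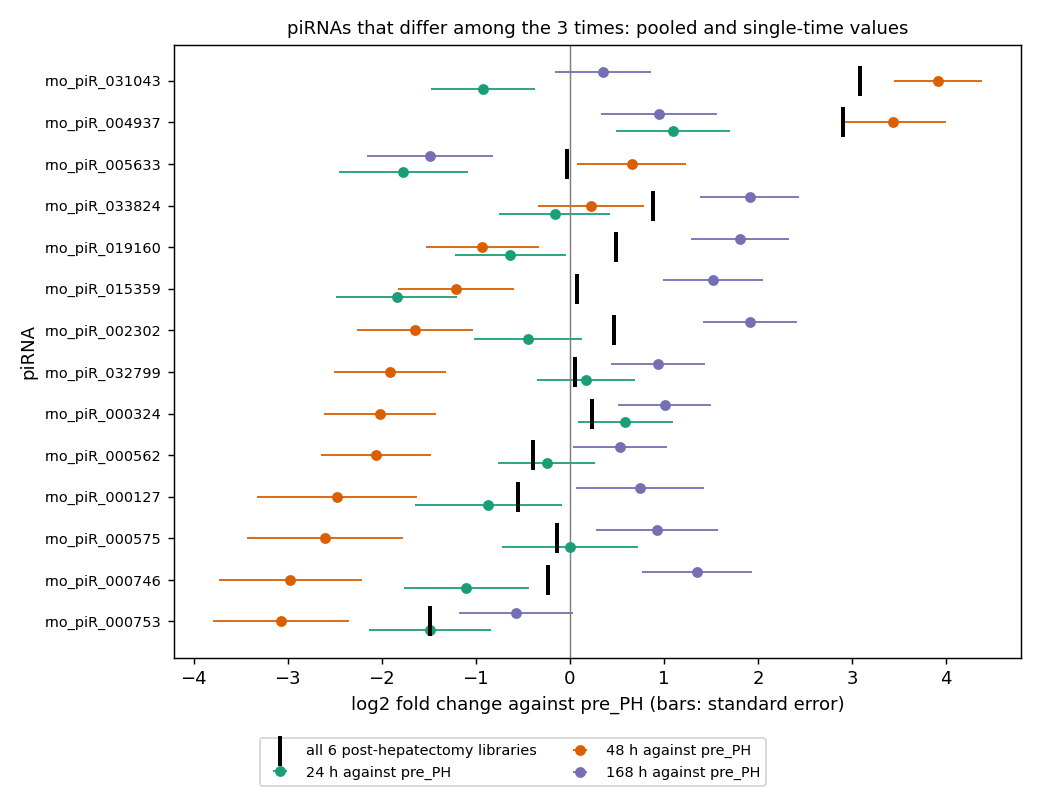
Log2 fold change against pre_PH (x axis, bars are standard errors) of the 14 piRNAs of the pooled comparison that differed among the 3 times, for each time (dots) and for all 6 libraries after hepatectomy (black bars). The 3 single-time values share the pre_PH libraries. In rno_piR_000746 the 48 h value of -2.97 and the 168 h value of 1.35 lie on opposite sides of the pooled -0.24.

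Among the 14, 9 had their lowest value at 48h. Many tested piRNAs that did not differ among times had their lowest value there too, rno_piR_000685 and rno_piR_005596 among them. Nothing is therefore read from this count. Against pre_PH the fold changes of rno_piR_000324 were 0.59, -2.02 and 1.007 at 24h, 48h and 168h, and 0.24 in the pool. Those of rno_piR_032799 were 0.17, -1.91 and 0.94, and 0.051 in the pool. For rno_piR_005633 the order was the reverse, with -1.77, 0.66 and -1.49, and -0.031 in the pool. Tested time by time in the same fit, edgeR called 1 of 80 piRNAs higher and 1 lower at 24h (1.25% each), 27 higher and 10 lower at 48h (33.8% and 12.5%), and 5 higher and 0 lower at 168h (6.25% and 0%). Of the 27 higher at 48h, 21 entered only through the filter of the 4-group fit, and among the 52 piRNAs of the pooled comparison 48h had 6 higher and 10 lower. These contrasts share the pre_PH libraries and are set side by side only.

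Libraries from different times after hepatectomy had a lower median rank correlation with each other than libraries of sham liver did. The ranges overlapped, with 0.790 to 0.908 between times and 0.823 to 0.980 within pre_PH. Over the 52 tested piRNAs, the rank correlation (Spearman) between libraries had a median of 0.947 over 15 pre_PH pairs, 0.915 over the 3 pairs of 1 time, 0.844 over 12 pairs of different times after hepatectomy and 0.884 over 36 pairs of a pre_PH and a later library. These are descriptions, since pairs share libraries. The SD of log2(normalised CPM + 1) over the 6 libraries after hepatectomy was larger than over the 6 pre_PH libraries for 36 of 52 piRNAs, with medians of 1.03 and 0.71. Leaving out any 1 library gave 34 to 40 of 52, and leaving out both 48h libraries 29. Within a time, where n is 2, the median SD was 0.66, and 25 of 52 exceeded their pre_PH value. The spread of rno_piR_031043 was 2.68 after hepatectomy and 0.30 in pre_PH, and that of rno_piR_015359 was 1.49 and 0.14. In the opposite direction rno_piR_005787 had 1.40 and 2.72, and rno_piR_008174 had 0.68 and 1.97.

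**Figure D4:**
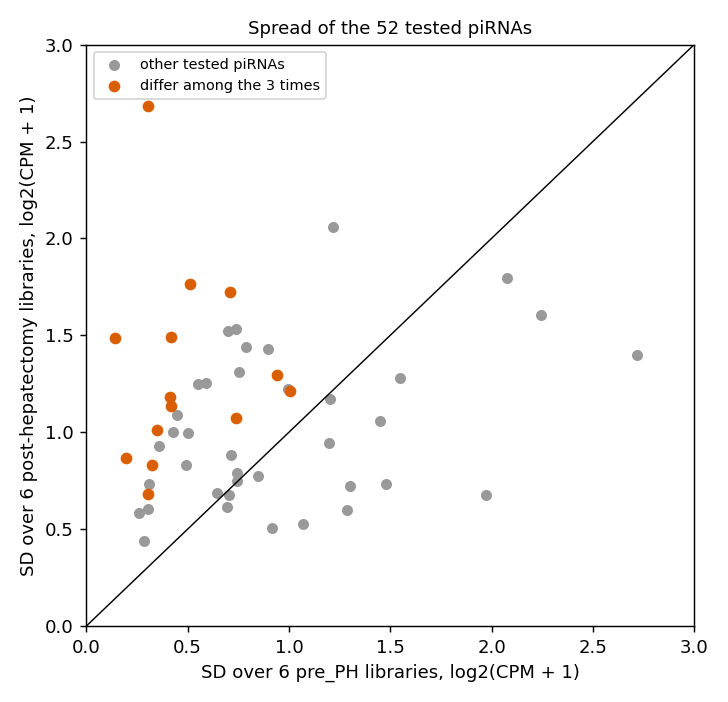
Spread of each of the 52 tested piRNAs, as the SD of log2(normalised CPM + 1) over the 6 pre_PH libraries (x axis) and over the 6 libraries after hepatectomy (y axis), with the line of equality. Orange points differ among the 3 times, which by itself widens their spread on the y axis, and 36 of 52 points lie above the line.

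As whole populations the piRNAs of the pooled group did not pass any of 6 tests. The share of the most abundant piRNA, above, had an exact permutation p of 0.0130 (two-sided), which became 0.0779 after adjustment over the 6 measures. The 3 most abundant together held 50.7% ± 16.8 (SD, n = 6) after hepatectomy and 67.0% ± 5.41 (n = 6) in pre_PH, and 3 libraries lay below every pre_PH library (exact permutation test, p = 0.0606, adjusted p = 0.121). The Shannon index, which is higher when reads are spread over more piRNAs, was 2.23 ± 0.17 against 1.99 ± 0.18 (SD, n = 6 each, exact permutation p = 0.0498, adjusted p = 0.121). The 2 libraries at 48h had the highest index of all, at 2.43 and 2.45.

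**Figure D5:**
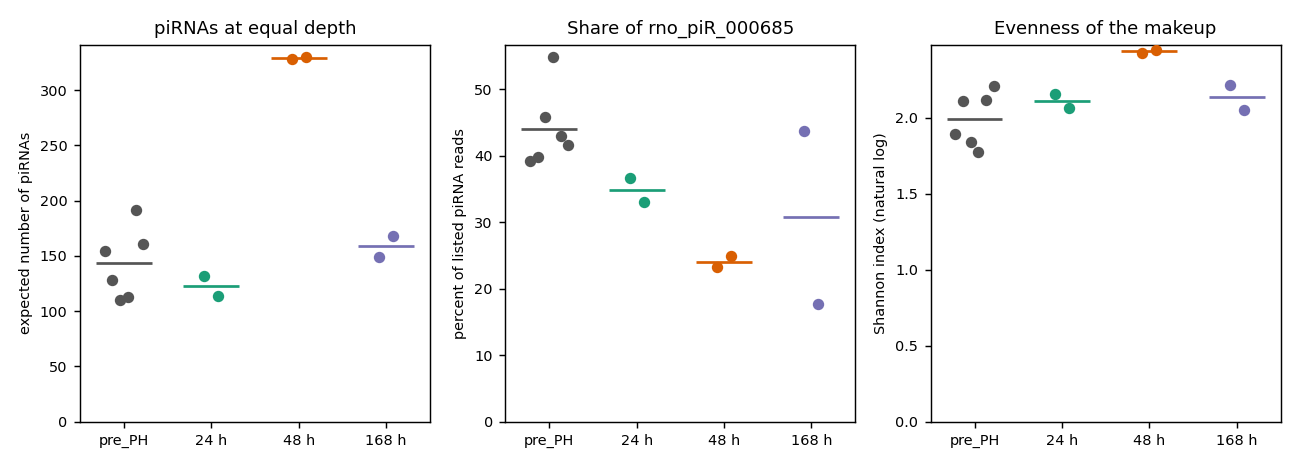
Number of piRNAs expected at an equal 120844 piRNA reads, percent of piRNA reads held by rno_piR_000685, and Shannon index, for each library of pre_PH (n = 6) and of 24, 48 and 168 h after hepatectomy (n = 2 each). Points are libraries and lines are group means. In the first panel the 48 h libraries stand at 328 and 330.1 and the other 4 after hepatectomy between 114 and 168.

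At equal depth 204 ± 98.9 piRNAs were expected per library after hepatectomy and 143 ± 31.7 in pre_PH (SD, n = 6 each, exact permutation p = 0.249, adjusted p = 0.373). Without both 48h libraries the difference of 60.4 turned to -2.37. The piRNA share of library reads was 0.591% ± 0.176 and 0.713% ± 0.296 (SD, n = 6 each, exact permutation on log2 share p = 0.418, adjusted p = 0.418). That of the 10 most abundant was 90.7% ± 3.13 and 92.0% ± 2.14 (SD, n = 6 each, exact permutation p = 0.418, adjusted p = 0.418). Leaving out both 168h libraries, or 168h replicate 1 alone, brought the most abundant piRNA past the threshold (exact permutation adjusted p = 0.0286 and 0.0130), and leaving out both 24h libraries did so for the 3 most abundant (exact permutation adjusted p = 0.0429). The smallest p that this design can give is 0.00216.

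More names were listed after hepatectomy, most of them rare. The 6 libraries after hepatectomy listed 600 names in 952260 piRNA reads and the 6 pre_PH libraries 379 names in 1147041 reads. A total of 322 names were found only after hepatectomy and 101 only in pre_PH, and 278 in both. Of the 322, 227 appeared at 48h alone and 4 were found at all 3 times. No name found on 1 side only had more than 9 reads in a library after hepatectomy or 3 in pre_PH. Names listed in all 6 libraries were about as many on both sides, 72 after hepatectomy and 71 in pre_PH, with 61 in all 12.

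A single name, rno_piR_007888, was listed in all 6 libraries after hepatectomy and in none of pre_PH. It had 4 and 2 reads at 24h, 3 and 6 at 48h, and 2 and 1 at 168h. Set against an assumed 3 reads over the pre_PH group, about the most that a count of 0 allows, its rate was 6.09-fold higher. That value takes its 18 reads after hepatectomy as exact, so it is not a lower bound. Fisher's exact test on the number of libraries gave p = 0.00216, the smallest that 6 libraries against 6 can give, and an adjusted p of 1 over 701 names. A single name at that p could not have passed over so many names. Only 2 names had an unadjusted p under 0.05. The other, rno_piR_001062, had 8 reads in 5 of 6 libraries after hepatectomy and none in pre_PH. Its rate, reckoned the same way, was 2.71-fold higher. Reads of rno_piR_009544 numbered 160 in all 6 libraries after hepatectomy and 8 in 2 pre_PH libraries, a ratio of 20.3 (95% counting interval 10.1 to 47.8), with 77.8% of the normalised sum from 48h. It was below the pooled filter, and with no filter it passed over 701 names (edgeR adjusted p = 0.0239). The ratio for rno_piR_016219, with 25 reads and 3, was 8.46 (95% counting interval 2.58 to 43.8), and that for rno_piR_001531, with 21 reads and 4, was 5.33 (1.798 to 21.3). The pre_PH reads of these names lay mostly in 1 library. Without pre_PH replicate 5, which held 7 of the 8 reads of rno_piR_009544, its ratio was 132 (23.4 to 5249), and without 48h replicate 2 it was 12.2 (5.85 to 29.3). All pre_PH reads of rno_piR_016219 were in replicate 6 and all those of rno_piR_001531 in replicate 5, so that without that library neither name had a pre_PH read. These intervals take in counting error alone, as PCR copies are not independent molecules. The names were also chosen for the largest difference in the number of libraries listing them. High ratios are therefore built in, and no change is read from the ratios or their intervals.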

How the data were processed

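The authors' deposited tables gave, per library, a whole-number read count and a second count of distinct read sequences for each piRNA name, with no normalization per the file headers. The authors also deposited percent columns, relative to all reads and to reads mapped to piRNAs, per the file headers. Library totals were recovered from the read count and the first percent. The submitters list build rn4, DESeq 1.14.0, cutadapt and CASAVA 1.8, per the submitters' processing notes, with no order. Which aligner was used, and how reads matching several names were handled, is not given in the sources used here, so near-identical names may share or split reads. Libraries were made from TRIzol RNA with an Illumina small RNA kit and sequenced on a HiSeq instrument, per the labels' protocols. A name not listed was taken as 0. Listed reads were 99.2 to 99.9% of the mapped total. The rest was not analysed here.

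Tests on read counts used edgeR 4.0.16 under R 4.3.3 (robust quasi-likelihood fit, TMM, filterByExpr), 6 libraries against 6, and in a 4-group fit for differences among the 3 times. The standard error is the log2 fold change over the square root of F. Biological coefficients of variation were 0.668 and 0.591. Data were also simulated for the pooled comparison (a median of 59 piRNAs tested). Of 95 changes of 4-fold that reached the test, 62.1% were called, and of 89 changes of 16-fold that did, 100% were called. Changed piRNAs that the filter removed are not counted in these shares. Each simulated data set held changes of both folds, and false calls came to 0.4 per data set. For the 6 measures per library an exact permutation test (two-sided) was used. Species at equal depth are expected numbers at 120844 reads. DESeq2 1.42.0 and limma 3.58.1 (voom) served as alternatives.

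Named piRNAs were the pooled calls, those whose groups did not overlap, the 10 most abundant, the next by p up to 20, the 5 smallest p among times and the 5 largest differences in number of libraries listing a name. Those in the test among times that are named in addition were chosen after their values were seen. The grouping, lists and tests were chosen with earlier results of these data known.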

Additional observations from a re-analysis of the deposited data

Results flagged for a closer look

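Several named piRNAs had 1 library far from the other 5 of its group. Of 58 groups examined 8 were so. The nominal rate of about 1 in 20 assumes independent values from 1 normal population. That does not hold here, as the hepatectomy group joins 3 times and the names were partly chosen by their values. No excess over chance is therefore read from this count. After hepatectomy this was 48h replicate 1, at 2528 normalised CPM of rno_piR_004937 (others 103 to 603), 249236 of rno_piR_005901 (others 21893 to 80798) and 107475 of rno_piR_005900 (others 14978 to 47795). In pre_PH it was replicate 3 for rno_piR_005787 (232769, others 935 to 80524) and rno_piR_000030 (105945, others 1237 to 34546), the library with the lowest TMM factor, replicate 5 for rno_piR_010957 (155, others 53.5 to 86.0) and rno_piR_006831 (186, others 38.7 to 89.1), and replicate 1 for rno_piR_001825 (545, others 214 to 331).

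The effect differed among 24h, 48h and 168h (edgeR test among the 3 times) for rno_piR_031043 (adjusted p = 3.1e-05), rno_piR_000746, rno_piR_002302, rno_piR_034827 and rno_piR_015359 (each 0.00184), rno_piR_004937 (0.0131), rno_piR_033824 (0.0410) and rno_piR_000753 (0.0460). Of these, rno_piR_034827 entered the fit only through the 48h libraries, where it was high, so nothing is read from its p.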

How the results depend on the processing

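The count of piRNAs higher after hepatectomy, 5 in the edgeR fit, was 3 with upper-quartile scaling, 1 with the authors' library total, 3 with no filter (701 names), 0 with limma-voom (8 at an unadjusted p under 0.05), 8 without both 24h libraries and 1 without both 48h libraries, and ranged from 0 to 7 with single libraries left out. The count of lower ones, 1, was 0 with upper-quartile scaling, the piRNA total, TMM without the 10 most abundant, no filter and limma-voom, 3 with the mean of the 3 time contrasts, 2 without both 24h and 3 without both 48h libraries, and ranged from 0 to 2 with single libraries left out. DESeq2 and a filter of at least 10 reads in 6 libraries (55 piRNAs tested, against 52) each gave 6 higher and 1 lower and kept all 6 calls. The 27 piRNAs that differed among times became 47 with the authors' library total and 17 with no filter, and 16 to 36 with single libraries left out. The replicate numbers are not stated to pair the libraries, and pre_PH replicates 3 to 6 have no partner. Correlations between deviations of same-numbered libraries ran from -0.436 to 0.347. With 2 libraries at a time, the deviations of replicates 1 and 2 after hepatectomy mirror each other. These correlations therefore cannot decide whether libraries pair. The spread counts and read ratios under left-out libraries, and the other scales of non-overlap, were added after seeing the data. A replicate block left the pooled comparison with 0 higher and 0 lower (8 at an unadjusted p under 0.05) and the test among times with 26.

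The sign turned in the following cases, none past the threshold. Without both 48h libraries the difference in species at equal depth was -2.37, and log2 fold changes were -0.42 for rno_piR_031043, -0.26 for rno_piR_005901 and 0.22 for rno_piR_000746. Without both 24h libraries they were -0.73 for rno_piR_005556, 0.12 for rno_piR_005900 and -0.17 for rno_piR_008639. Without both 168h libraries they were -0.78 for rno_piR_002302 and -1.34 for rno_piR_015359. The mean of the time contrasts gave -0.42 for rno_piR_005556 and -0.42 for rno_piR_015359. TMM without the 10 most abundant gave 0.0038 for rno_piR_005900, upper-quartile scaling 0.0603 for rno_piR_005787, and the piRNA total 0.17 for rno_piR_005787, 0.0112 for rno_piR_000030 and 0.0283 for rno_piR_000746. limma-voom gave 0.66 for rno_piR_005787, 0.17 for rno_piR_000030 and -0.58 for rno_piR_015359. No filter gave 0.0617 for rno_piR_000746. The replicate block gave 2.38 for rno_piR_005787, 1.55 for rno_piR_000030 and -0.0104 for rno_piR_015359. With single libraries left out the lowest and highest values were -1.02 and 0.85 for rno_piR_005556, -0.13 and 0.83 for rno_piR_005901, -0.64 and 0.0179 for rno_piR_005900, -1.39 and 0.63 for rno_piR_005787, -0.56 and 0.69 for rno_piR_008639, -1.43 and 0.44 for rno_piR_000030, -0.62 and 0.25 for rno_piR_000746, and -0.41 and 0.27 for rno_piR_015359. The causes were not tested. The share of rno_piR_000685 passed without both 168h libraries (difference of -14.5 percentage points), and its range with single libraries left out was -16.9 to -11.7. The share of the 3 most abundant passed without both 24h libraries (-23.8). Depth limits names with under about 10 reads a library.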

Other observations

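The number of distinct read sequences behind a piRNA name differed widely between names. All reads of rno_piR_005901, between 3457 and 25435 per library, were a single distinct sequence in each of the 12 libraries. Those of rno_piR_005900, at 1921 to 14263 reads, had 58 to 110 distinct sequences per library. For rno_piR_000685 the number lay between 86 and 91 in every library while its reads ran from 26005 to 161081. Both 48h libraries held more distinct sequences of rno_piR_010957 (35 and 39) and rno_piR_006831 (30 and 35) than any other library (at most 14 and 19), and these were also the libraries with the most reads of each. How reads were assigned to names is not given in the sources used here.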
